A study of Homo sapiens with 12 samples.

Results

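The 113 genes described here stood lower after interferon gamma (IFNγ) than before it in every siRNA group of U251 cells, an established human glioblastoma line. They were chosen by their measured values, out of 45416 genes in the deposited RNA-seq table. A gene was taken when, in each of 3 siRNA groups, the higher of its 2 values after IFNγ was at most 0.77 times the lower of its 2 values without IFNγ, and when the mean of its 6 unstimulated libraries was at least 5 CPM (read counts scaled to library size and normalized). *ANKRD1*, *CCN1*, *CCN2*, *TGFB3* and genes whose names start with COL, KIF, LINC, ITG or MMP were left out by name. Of 11508 genes at or above the 5 CPM floor, 118 met the ratio in all 3 groups, and *ITGA9*, *COL14A1*, *ANKRD1*, *MMP15* and *MMP28* were the 5 left out by name.

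The study asked how silencing of *PD-L1* alters the transcriptome of tumor cells. The U251 cells, labelled wild type, carried siNC, a control siRNA, or either siPDL1-1 or siPDL1-2, which target *PD-L1*, and from 48 h after transfection they were either left without IFNγ or given 100 U/ml of it for 24 h. Each of the 6 conditions had 2 libraries, 12 in all, which per the methods came from 2 independent experiments with this 1 line. The unstimulated cells were transfected too, so every group held an siRNA, and none was untransfected.

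IFNγ binds a receptor at the cell surface that activates the kinases JAK1 and JAK2. The signal reaches the nucleus and induces genes such as *IRF1*, the antigen-presentation genes and *PD-L1* itself. In glioblastoma cells many of the genes named below encode proteins of the surface and the surrounding matrix, and components or feedback inhibitors of the TGF-β, BMP, Wnt, Notch and FGF pathways, which in these tumors are linked to adhesion, invasion and differentiation.

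*PD-L1* is listed as *CD274*, and its level checks the labels. It was 4.60 and 4.91 CPM in unstimulated siNC cells and 71.2 and 76.03 CPM after IFNγ, 2.67 and 2.73 against 60.9 and 66.7 CPM with siPDL1-1, and 3.57 and 3.45 against 37.5 and 35.04 CPM with siPDL1-2. With either siRNA, the libraries lay below those of siNC in both states, and with IFNγ the gap was wider for siPDL1-2 than for siPDL1-1. All 39 tested genes of a list of IFNγ-induced genes were called higher in each siRNA group, where 6.67% (siNC), 5.58% (siPDL1-1) and 3.62% (siPDL1-2) of the 17982 genes tested were. Between 17101069 and 55657393 reads were counted on genes in a library, so that 1 read was worth between 0.0187 and 0.0586 CPM. Of 15 glioma and astrocyte markers, 12 had a median of at least 1 CPM, while *AQP4*, *SLC1A2* and *OLIG2* were below 1 CPM in all 12 libraries. Of 18 markers of other cell types, 11 were below 1 CPM in all libraries, and their summed level was 83.2 to 106.8 CPM in unstimulated and 69.8 to 83.4 CPM in stimulated libraries, most of it the keratin *KRT18*.

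Promoter sequences are shown for 2 pairs of neighbouring genes among the 113, each pair made of related genes. *SERPINA3* and *SERPINA5* encode secreted serine protease inhibitors and lie 19265 bases apart on chromosome 14, and *AKR1C1* and *AKR1C2* encode steroid-reducing aldo-keto reductases and lie 4116 bases apart on chromosome 10. The sequences run from 250 bases before to 50 bases after the RefSeq start (GRCh38.p14): chr14:94612141-94612440 (plus strand) for *SERPINA3*, chr14:94581176-94581475 (plus) for *SERPINA5*, chr10:4963165-4963464 (plus) for *AKR1C1* and chr10:5003808-5004107 (minus) for *AKR1C2*. The *SERPINA5* and *AKR1C2* windows lie inside the gene bodies of the deposited annotation (94561442 to 94593118 and 4987400 to 5018031), away from their outer starts. Which start U251 cells use was not examined. Capitals mark matches on either strand to the motifs searched. These were the AP-1 site, spelled TGANTCA, the site of TEAD factors, spelled GGAATG, the GAS element of IFNγ-responsive promoters, spelled TTCNNNGAA, the core of the ISRE bound by interferon regulatory factors, spelled TTCNNTTTC, the E-box of basic helix-loop-helix factors, spelled CACGTG, the box of the factor NF-Y, spelled CCAAT, and the CArG box of the serum response factor SRF.
SERPINA3: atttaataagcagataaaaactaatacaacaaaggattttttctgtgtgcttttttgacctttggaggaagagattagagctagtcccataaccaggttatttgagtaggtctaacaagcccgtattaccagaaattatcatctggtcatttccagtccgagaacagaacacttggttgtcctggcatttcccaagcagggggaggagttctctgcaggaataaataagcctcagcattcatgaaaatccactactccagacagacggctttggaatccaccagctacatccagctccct
SERPINA5: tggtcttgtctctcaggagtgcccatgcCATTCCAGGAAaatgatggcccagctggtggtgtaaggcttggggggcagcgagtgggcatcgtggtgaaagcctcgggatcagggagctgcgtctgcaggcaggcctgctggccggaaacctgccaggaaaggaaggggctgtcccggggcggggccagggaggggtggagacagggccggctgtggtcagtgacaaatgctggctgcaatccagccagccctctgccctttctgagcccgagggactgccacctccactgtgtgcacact
AKR1C1: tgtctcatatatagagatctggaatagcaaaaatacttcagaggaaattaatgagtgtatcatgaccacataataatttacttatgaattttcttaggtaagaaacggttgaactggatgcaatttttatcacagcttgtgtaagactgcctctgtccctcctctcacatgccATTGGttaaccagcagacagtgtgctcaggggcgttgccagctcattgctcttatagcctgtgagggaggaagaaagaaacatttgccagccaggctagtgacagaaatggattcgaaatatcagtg
AKR1C2: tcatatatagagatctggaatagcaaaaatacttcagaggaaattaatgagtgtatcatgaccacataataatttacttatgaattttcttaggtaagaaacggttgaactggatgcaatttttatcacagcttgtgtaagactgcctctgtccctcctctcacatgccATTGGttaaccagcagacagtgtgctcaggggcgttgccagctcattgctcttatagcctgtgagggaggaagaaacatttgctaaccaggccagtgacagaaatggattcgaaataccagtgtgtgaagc

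The *SERPINA3* window held none of these letters. In the *SERPINA5* window, a TEAD match at positions 29 to 34 and a GAS match at positions 31 to 39 overlapped. Each AKR1C window held 1 CCAAT box, at positions 174 to 178 for *AKR1C1* and 170 to 174 for *AKR1C2*. Once aligned, the AKR1C windows were identical at 288 of 292 bases (98.6%), and reads of these near-copies could be split between them by the counting, so their values are uncertain. Among 27305 RefSeq promoters of the same length, 14.0% held the TEAD letters, 7.88% GAS, 35.7% CCAAT, 7.76% AP-1, 8.29% the ISRE core, 7.43% the E-box and 1.29% the CArG box. A share over the 113 genes is not given, since promoters of only 79 of them (69.9%) could be matched. A match is a description of the letters and not a binding site.

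Because the IFNγ contrast chose the genes, their falls are described without a test. Log2 fold changes are differences of the mean log2(CPM + 1) and are given in the order siNC, siPDL1-1, siPDL1-2. The median over the 113 genes was -0.73, -0.61 and -0.72, beside -0.016 to 0.0012 over all genes tested. The median gene was left at 57.9%, 63.1% and 59.2% of its unstimulated mean, and the lowest at 29.9%, 27.2% and 26.4%. In 8 genes the level was below 50% in all 3 groups, and in 43 it was below 50% in at least 1. In bulk RNA, fewer cells that express a gene and less RNA of it per cell cannot be told apart. For 85 of the 113 genes, all 6 stimulated libraries lay below all 6 unstimulated libraries, whatever the siRNA, and the other 28 did so within each siRNA only. Over all genes tested this held for 3.44%, and nothing is read from the difference, since these values chose the genes. Over all genes tested, 1.45% (siNC), 1.3% (siPDL1-1) and 1.65% (siPDL1-2) were called lower with IFNγ at FDR < 0.01 and a fold change over 1.5.

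**Figure D1:**
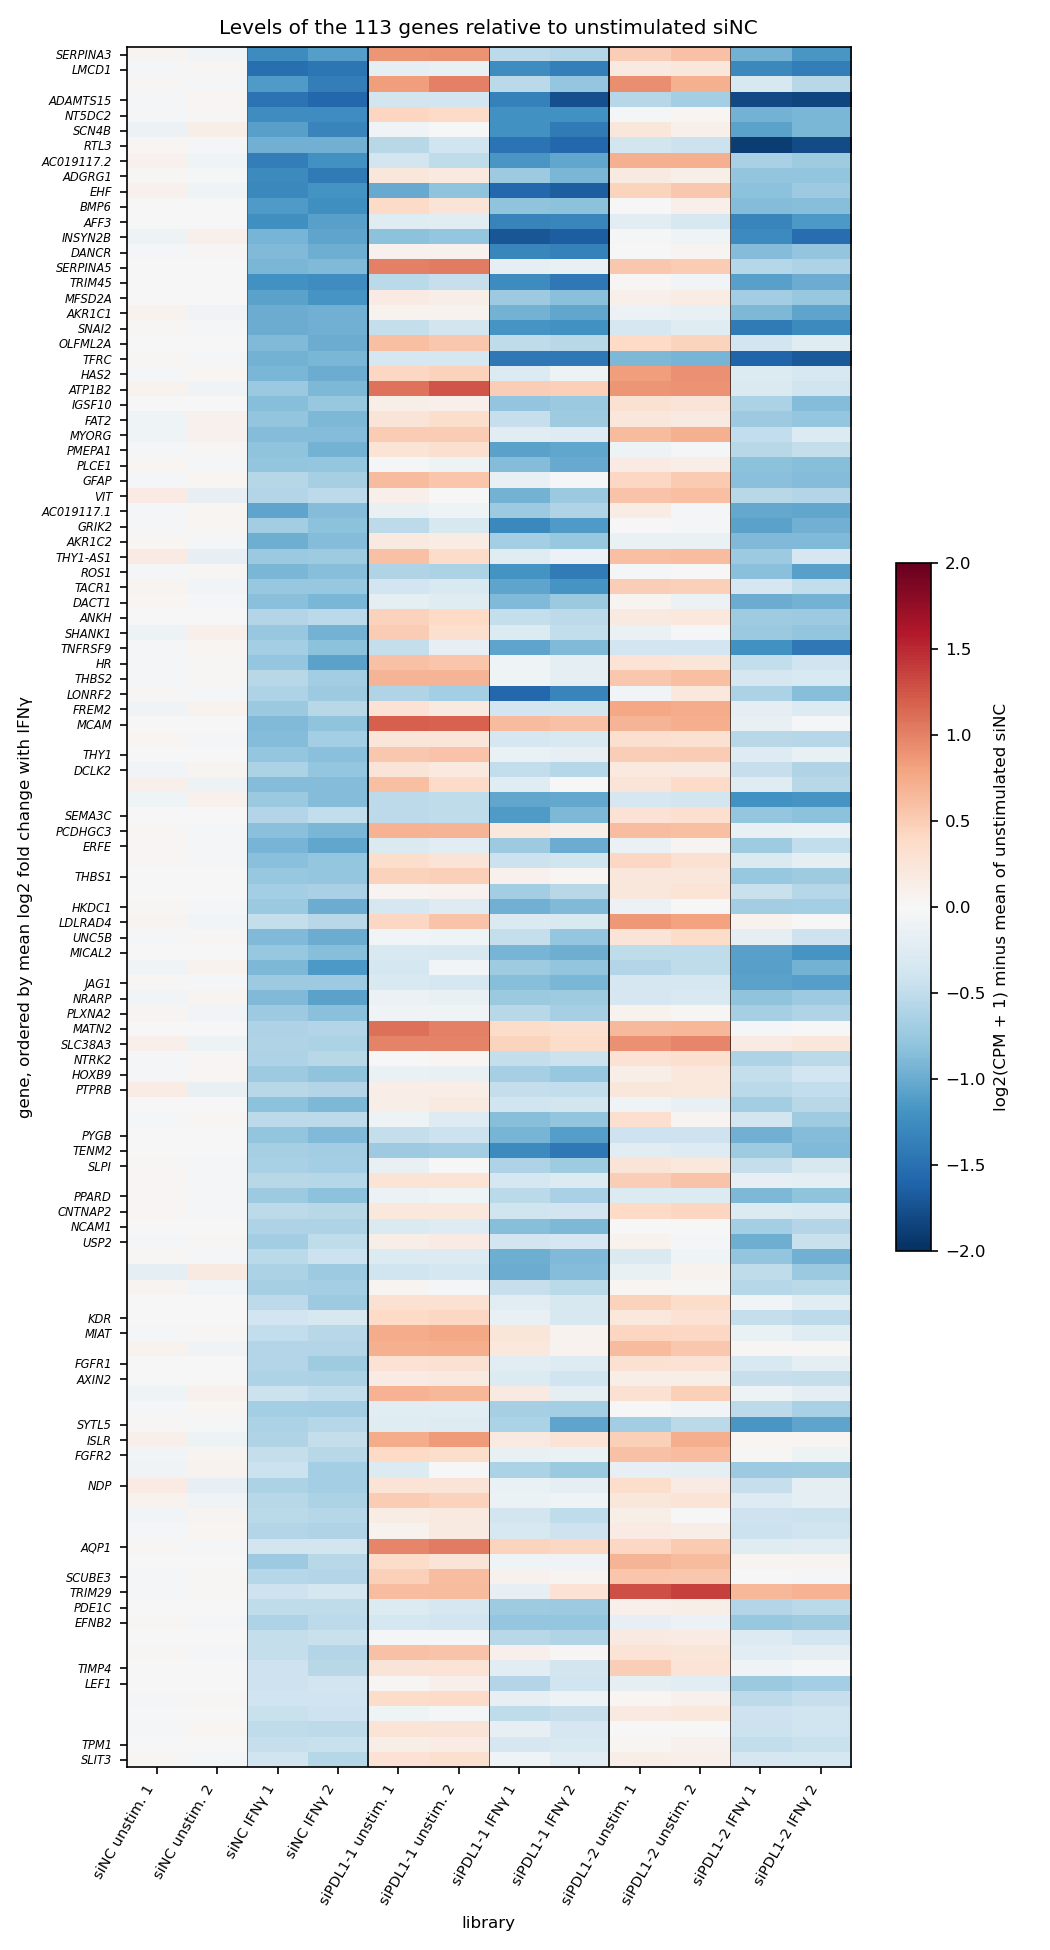
Level of each of the 113 genes (rows, ordered by their mean fall) in each of the 12 libraries (columns), as log2(CPM + 1) minus the mean of the 2 unstimulated siNC libraries, with blue for lower and red for higher. Names are given for genes described in the text. Every gene is bluer after IFNγ than before it within its own siRNA group, which is how the genes were chosen, and *SERPINA3* and *LMCD1* at the top fell the most, by means of 1.40 and 1.38.

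The ratio is a line through a continuous range. Just inside it were *THBS1* (highest of the 3 ratios 0.76967), *NDP* (0.76942) and *TIMP4* (0.76876), and just outside were *FAM171A1* (0.77001), *ZFP69B* (0.77014) and *TRIB3* (0.77179). A further 33 genes at the floor had a highest ratio above 0.77 and up to 0.80, and 30 of the 113 had one between 0.74 and 0.77. After the exclusions by name, the ratio was met by 395 genes in siNC, 352 in siPDL1-1 and 390 in siPDL1-2 cells, of which 522 met it in 1 group, 138 in 2 groups and 113 in all 3. Unstimulated levels ran from a mean of 5.16 to 552.7 CPM with a median of 27.4 CPM, against a median of 36.6 CPM for all genes at the floor. The highest coefficient of variation within a pair of replicates was 8.48% for the median gene and 32.0% at most.

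The genes covered matrix, surface, signalling, nuclear and metabolic roles. Of the 113, 105 were protein-coding and 8 were long noncoding RNAs, which is 92.9% and 7.08%, beside 95.9% and 3.89% of the genes at the floor. The coding members spanned a median of 49.9 kb of genome with 6.73 kb of exons, beside 34.8 kb and 5.68 kb for 11035 coding genes at the floor. These are descriptions of a chosen set and were not tested.

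Matrix proteins, proteases and protease inhibitors made up 14 genes, with a median fall of 0.82 over the mean of the 3 log2 fold changes. *SERPINA3* (chromosome 14, 94612384 to 94624055, plus strand of GRCh38) encodes alpha-1-antichymotrypsin, an acute-phase protease inhibitor that reactive astrocytes also make. *SERPINA3* was 20.4 and 18.9 CPM in unstimulated siNC cells and 7.60 and 8.61 CPM after IFNγ, 36.9 and 37.6 against 13.3 and 12.9 CPM with siPDL1-1, and 27.9 and 29.8 against 9.68 and 8.20 CPM with siPDL1-2. Its log2 fold changes were -1.18, -1.44 and -1.59, so that all stimulated libraries lay below all unstimulated ones, and the level before IFNγ was higher with either *PD-L1* siRNA than with siNC. Its neighbour *SERPINA5* (chromosome 14, 94561442 to 94593118, plus strand), the protein C inhibitor, showed the same order of the siRNAs before stimulation. In siNC cells, *SERPINA5* went from 15.9 and 15.7 CPM to 7.92 and 8.07 CPM, with siPDL1-1 from 32.5 and 33.4 to 13.8 and 14.1 CPM, and with siPDL1-2 from 23.2 and 22.9 to 10.3 and 9.88 CPM. The falls on the log2 scale were -0.90, -1.18 and -1.12, with no overlap between the states. *ADAMTS15* is a secreted metalloprotease that cuts proteoglycans of the matrix. The libraries held *ADAMTS15* at 55.5 and 58.4 CPM (siNC), 44.1 and 43.4 CPM (siPDL1-1) and 37.8 and 35.3 CPM (siPDL1-2) without stimulation, and at 19.8 and 18.4, 21.6 and 16.2 and 15.6 and 15.3 CPM after IFNγ. It fell by more in siNC cells (-1.53, -1.18 and -1.19 in the 3 groups), whose unstimulated level was the highest.

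The thrombospondins *THBS1* and *THBS2* are matricellular glycoproteins that act on adhesion and on TGF-β activation, and *HAS2* makes the glycosaminoglycan hyaluronan. *THBS1* was 170.1 and 172 CPM in unstimulated siNC cells and 100.2 and 99.1 CPM after IFNγ, 234 and 237 against 180.5 and 175 CPM with siPDL1-1, and 199 and 201 against 101 and 104 CPM with siPDL1-2. *THBS1* fell least with siPDL1-1 (log2 fold changes -0.77, -0.41 and -0.96), whose stimulated libraries lay above the unstimulated libraries of siNC. In siNC cells, *THBS2* went from 24.9 and 25.6 CPM to 16.9 and 15.2 CPM, with siPDL1-1 from 40.9 and 40.9 to 23.7 and 21.97 CPM, and with siPDL1-2 from 36.97 and 38.7 to 19.7 and 20.2 CPM. For *THBS2* the values were -0.62, -0.81 and -0.89 and the states did not overlap. The libraries held *HAS2* at 6.71 and 7.11 CPM (siNC), 9.57 and 9.89 CPM (siPDL1-1) and 13.1 and 13.9 CPM (siPDL1-2) without stimulation, and at 3.20 and 2.97, 5.56 and 6.35 and 5.57 and 5.35 CPM after IFNγ. *HAS2* was a low-abundance transcript in all libraries, and its log2 fold changes were -0.95, -0.63 and -1.16. In siNC cells, *MATN2* went from 11.02 and 11.2 CPM to 6.89 and 7.08 CPM, with siPDL1-1 from 25.03 and 23.3 to 14.6 and 14.1 CPM, and with siPDL1-2 from 18.1 and 18.1 to 10.8 and 11.2 CPM. *MATN2*, a filament-forming matrilin, changed by -0.60, -0.71 and -0.67, almost the same amount in each group, from unstimulated levels that differed between siRNAs. *MATN2* overlaps the ribosomal protein gene *RPL30* on the opposite strand, at 14.3 and 499.6 CPM on average over the 12 libraries, and both strands were counted together. *RPL30* itself changed by 0.10, -0.027 and 0.074. The remaining matrix genes were *OLFML2A*, *IGSF10*, *VIT*, *FREM2*, *SLPI*, *ISLR* and *TIMP4*, whose mean log2 fold changes ran from -0.92 for *OLFML2A* to -0.49 for *TIMP4*.

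The 14 receptors had a median of -0.66. *ADGRG1* (GPR56) is an adhesion receptor coupled to G proteins that binds matrix ligands. *ADGRG1* was 91.2 and 87.4 CPM in unstimulated siNC cells and 36.3 and 32.7 CPM after IFNγ, 105 and 103 against 53.7 and 46.7 CPM with siPDL1-1, and 102 and 97.1 against 51.02 and 51.3 CPM with siPDL1-2. It was the receptor with the deepest fall, by log2 fold changes of -1.35, -1.04 and -0.94. *TFRC*, the transferrin receptor, brings iron into the cell and is abundant in dividing cells. In siNC cells, *TFRC* went from 401 and 386 CPM to 203 and 208 CPM, with siPDL1-1 from 309 and 309 to 145 and 146 CPM, and with siPDL1-2 from 210.1 and 207 to 129 and 122 CPM. It fell in each group (-0.93, -1.08 and -0.73), but the unstimulated siPDL1-2 libraries, at 210.1 and 207 CPM, stood close to the stimulated siNC libraries, at 203 and 208 CPM. *FGFR1* and *FGFR2* are receptor tyrosine kinases for fibroblast growth factors. The libraries held *FGFR1* at 103 and 103 CPM (siNC), 125 and 127 CPM (siPDL1-1) and 127 and 126 CPM (siPDL1-2) without stimulation, and at 68.4 and 62.05, 88.7 and 85.9 and 82.6 and 90.1 CPM after IFNγ. *FGFR1* changed by -0.65, -0.52 and -0.54 and *FGFR2*, at 10.7 CPM in unstimulated siNC cells, by -0.51, -0.51 and -0.64. *TACR1*, the receptor for substance P, changed by -0.76, -0.78 and -0.90. *NTRK2*, the receptor of the neurotrophin BDNF, changed by -0.58, -0.48 and -0.89, and the VEGF receptor *KDR* by -0.35, -0.64 and -0.76. *TNFRSF9* (4-1BB), a costimulatory receptor best known from T cells, was 6.22 and 6.68 CPM in unstimulated and 3.63 and 3.24 CPM in stimulated siNC cells. The netrin receptor *UNC5B* changed by -0.93, -0.55 and -0.61, the semaphorin co-receptor *PLXNA2* by -0.79, -0.54 and -0.68 and the receptor tyrosine kinase *ROS1* by -0.88, -0.68 and -0.95. *KDR* and *PTPRB* are also known from endothelium, so endothelial markers were read beside them. *PECAM1*, *VWF* and *CDH5* together held 3.86 to 5.63 CPM in unstimulated and 2.01 to 3.25 CPM in stimulated libraries. In siNC cells *VWF* went from 3.72 and 4.78 to 1.63 and 1.70 CPM, and *CDH5* from 0.343 and 0.582 to 0.225 and 0.228 CPM. *PECAM1*, at most 0.297 CPM in any library, went there from 0.0490 and 0.0506 to 0.187 and 0.0830 CPM. The part of these markers in the result was not tested.

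Ligands and secreted signals were 8 genes. *BMP6* is a bone morphogenetic protein and *JAG1* a membrane-bound ligand of Notch. *BMP6* was 31.7 and 32.2 CPM in unstimulated siNC cells and 14.1 and 13.1 CPM after IFNγ, 42.00 and 38.5 against 17.96 and 17.7 CPM with siPDL1-1, and 32.2 and 34.3 against 17.1 and 17.3 CPM with siPDL1-2. *BMP6* changed by -1.18, -1.13 and -0.91 and its states did not overlap, and it overlaps the abundant *TXNDC5* on the other strand (430.0 CPM on average against 25.7 CPM), which changed by -0.31, -0.41 and -0.19. In siNC cells, *JAG1* went from 356 and 346 CPM to 211 and 211 CPM, with siPDL1-1 from 284 and 276 to 194 and 185 CPM, and with siPDL1-2 from 278 and 276 to 167 and 163 CPM. For *JAG1* the log2 fold changes were -0.73, -0.56 and -0.75. *SEMA3C* is a secreted guidance semaphorin. The libraries held *SEMA3C* at 167 and 164 CPM (siNC), 115 and 116 CPM (siPDL1-1) and 204 and 209.6 CPM (siPDL1-2) without stimulation, and at 109.6 and 117, 74.6 and 87.9 and 96.3 and 93.01 CPM after IFNγ. *SEMA3C* fell about equally in siNC and siPDL1-1 cells and by more with siPDL1-2 (-0.55, -0.51 and -1.12), from a higher level. *EFNB2*, an ephrin that signals to and from neighbouring cells, changed by -0.58, -0.41 and -0.59, the guidance ligand *SLIT3* by -0.48, -0.46 and -0.47, and *NDP* (norrin), a ligand of a frizzled receptor, by -0.65, -0.43 and -0.58. *ERFE* (erythroferrone), which binds BMP ligands, changed by -0.98, -0.61 and -0.57 and *SCUBE3* by -0.58, -0.48 and -0.56.

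**Figure D2:**
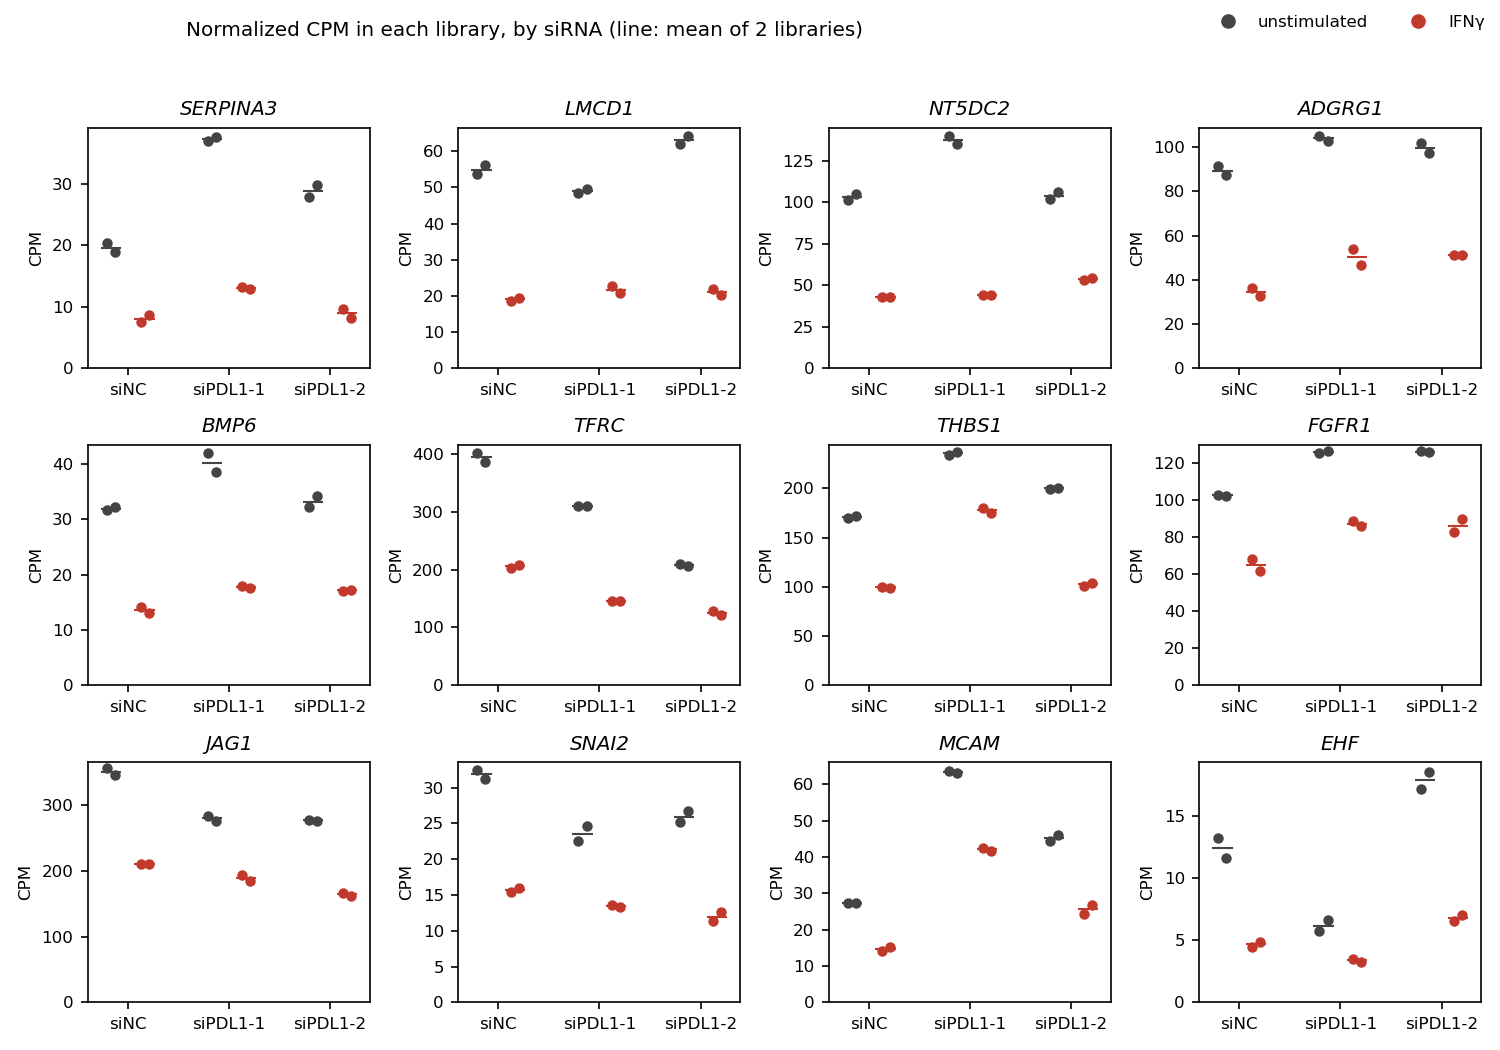
Normalized CPM of 12 of the genes in every library, by siRNA, with unstimulated libraries in gray, IFNγ libraries in red and a line at the mean of 2 libraries. In each gene and each siRNA group both red points lie below both gray points, and the levels before IFNγ differ between siRNAs, for example 27.3 CPM with siNC and 63.5 CPM with siPDL1-1 for *MCAM*.

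Transcription regulators and feedback genes were 14. *LMCD1* is a LIM-domain protein that restrains GATA factors. *LMCD1* was 53.8 and 56.1 CPM in unstimulated siNC cells and 18.7 and 19.5 CPM after IFNγ, 48.4 and 49.6 against 22.6 and 20.8 CPM with siPDL1-1, and 62.1 and 64.1 against 21.99 and 20.4 CPM with siPDL1-2. It had the second deepest mean fall of all 113 genes (-1.48, -1.14 and -1.53) and unstimulated levels within a narrow range. *EHF* is an ETS-family factor known from epithelia. In siNC cells, *EHF* went from 13.3 and 11.6 CPM to 4.49 and 4.84 CPM, with siPDL1-1 from 5.71 and 6.66 to 3.52 and 3.29 CPM, and with siPDL1-2 from 17.2 and 18.6 to 6.57 and 7.07 CPM. It fell by less with siPDL1-1 (-1.25, -0.70 and -1.27), where the unstimulated level was the lowest. *SNAI2* (Slug) is a repressor of epithelial genes. The libraries held *SNAI2* at 32.5 and 31.2 CPM (siNC), 22.6 and 24.6 CPM (siPDL1-1) and 25.1 and 26.7 CPM (siPDL1-2) without stimulation, and at 15.4 and 15.9, 13.6 and 13.3 and 11.3 and 12.7 CPM after IFNγ. *SNAI2* changed by -0.98, -0.77 and -1.05, without overlap of the states. *AFF3*, a component of elongation complexes, went from 8.08 and 8.07 to 2.88 and 3.28 CPM in siNC cells, with log2 fold changes of -1.15, -1.09 and -0.96.

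Several of these genes are known as targets and inhibitors of the pathway that induces them. *PMEPA1* is induced by TGF-β and limits SMAD signalling. *PMEPA1* was 140.1 and 144 CPM in unstimulated siNC cells and 81.4 and 73.5 CPM after IFNγ, 172 and 178 against 67.4 and 68.9 CPM with siPDL1-1, and 133 and 138 against 96.9 and 102 CPM with siPDL1-2. Its log2 fold changes were -0.87, -1.35 and -0.44, the widest range among the 113 genes. *LDLRAD4*, of the same family, changed by -0.52, -0.79 and -0.80. *AXIN2*, the feedback inhibitor of Wnt signalling, was 5.14 and 5.11 CPM in unstimulated siNC cells and 3.00 and 2.97 CPM after IFNγ, and changed by -0.62, -0.50 and -0.59. *LEF1*, a DNA-binding partner of β-catenin, changed by -0.39, -0.55 and -0.51 and *DACT1*, which binds the Wnt component Dishevelled, by -0.87, -0.59 and -0.94. *NRARP*, a Notch-induced inhibitor of Notch, changed by -0.98, -0.59 and -0.44. The nuclear receptor *PPARD* changed by -0.78, -0.49 and -0.58, the homeobox gene *HOXB9* by -0.77, -0.57 and -0.59 and the corepressor *HR* by -0.92, -0.70 and -0.70.

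Channels, pumps and transporters were 10 genes, with a median of -0.83. *SCN4B*, an auxiliary subunit of sodium channels, changed by nearly the same amount in each group. The libraries held *SCN4B* at 13.3 and 15.7 CPM (siNC), 13.7 and 14.4 CPM (siPDL1-1) and 17.1 and 15.6 CPM (siPDL1-2) without stimulation, and at 6.29 and 5.17, 5.65 and 4.80 and 6.33 and 7.17 CPM after IFNγ. The values on the log2 scale were -1.20, -1.27 and -1.16. *ATP1B2*, a beta subunit of the sodium pump that also acts in glial adhesion, changed by -0.81, -0.68 and -1.23, and *SLC38A3*, a glutamine transporter, by -0.62, -0.58 and -0.76. *MFSD2A*, which imports lysophospholipids, changed by -1.12, -0.92 and -0.85, the kainate receptor subunit *GRIK2* by -0.76, -0.78 and -1.01, the water channel *AQP1* by -0.37, -0.57 and -0.70 and the pyrophosphate exporter *ANKH* by -0.56, -0.93 and -0.91.

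Enzymes of metabolism were 8 genes. *NT5DC2*, a protein with a nucleotidase domain, had the deepest fall of them. *NT5DC2* was 101 and 105 CPM in unstimulated siNC cells and 42.9 and 43.2 CPM after IFNγ, 139.8 and 135 against 44.1 and 44.1 CPM with siPDL1-1, and 102 and 106 against 53.4 and 54.3 CPM with siPDL1-2. It fell to nearly the same stimulated level in siNC and siPDL1-1 cells from different starting levels (-1.24, -1.62 and -0.94). The aldo-keto reductases whose promoters are shown above fell side by side. In siNC cells, *AKR1C1* went from 72.9 and 66.2 CPM to 34.5 and 35.2 CPM, with siPDL1-1 from 72.7 and 73.2 to 35.8 and 33.4 CPM, and with siPDL1-2 from 63.8 and 62.2 to 36.9 and 32.9 CPM. *AKR1C1* changed by -0.97, -1.06 and -0.84 and *AKR1C2*, at 94.7 and 89.5 CPM in unstimulated and 46.5 and 50.2 CPM in stimulated siNC cells, by -0.92, -0.88 and -0.75. *PYGB*, the brain glycogen phosphorylase, changed by -0.84, -0.56 and -0.50 from 605 and 613 CPM in siNC cells. The glycosidase *MYORG* changed by -0.87, -0.75 and -1.06 and *HKDC1*, a hexokinase-domain protein, by -0.87, -0.61 and -0.63.

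Adhesion proteins were 8 genes with mean log2 fold changes of -0.90 to -0.58. *MCAM* (CD146) and *THY1* (CD90) are surface glycoproteins of the immunoglobulin superfamily, and *TENM2* is a large teneurin. *MCAM* was 27.3 and 27.3 CPM in unstimulated siNC cells and 14.3 and 15.2 CPM after IFNγ, 63.7 and 63.2 against 42.6 and 41.6 CPM with siPDL1-1, and 44.4 and 45.99 against 24.4 and 26.8 CPM with siPDL1-2. *MCAM* changed by -0.85, -0.58 and -0.80, and its stimulated siPDL1-1 libraries lay above the unstimulated siNC libraries. It overlaps *CBL* on the opposite strand (75.7 CPM on average, against 36.4 CPM for *MCAM*), which changed by 0.071, -0.026 and -0.18. In siNC cells, *THY1* went from 291 and 292 CPM to 169.95 and 163 CPM, with siPDL1-1 from 423 and 435 to 265 and 260.3 CPM, and with siPDL1-2 from 409.6 and 416 to 243 and 264 CPM. *THY1* changed by -0.80, -0.70 and -0.70 without overlap of the states. The libraries held *TENM2* at 667 and 681 CPM (siNC), 408 and 416 CPM (siPDL1-1) and 581 and 564 CPM (siPDL1-2) without stimulation, and at 423 and 417, 277 and 249 and 412 and 363 CPM after IFNγ. *TENM2*, the most abundant of this group, changed by -0.68, -0.65 and -0.56. *NCAM1*, the neural cell adhesion molecule, changed by -0.62, -0.60 and -0.63, the protocadherin *PCDHGC3* by -0.87, -0.53 and -0.76, the giant cadherin *FAT2* by -0.85, -0.89 and -0.95 and the neurexin-family protein *CNTNAP2* by -0.54, -0.60 and -0.71.

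Genes of the cytoskeleton and the synaptic scaffold were 10. *GFAP* is the intermediate filament that marks astrocytes, and it was low in these cells. *GFAP* was 4.21 and 4.48 CPM in unstimulated siNC cells and 2.58 and 2.39 CPM after IFNγ, 7.25 and 6.85 against 3.80 and 4.28 CPM with siPDL1-1, and 6.13 and 6.71 against 1.99 and 1.92 CPM with siPDL1-2. It fell by more with siPDL1-2 (-0.62, -0.68 and -1.33), and its reads could not be separated from those of *FAM187A* (8.30 CPM on average) and *CCDC103* (1.45 CPM) on the opposite strand, against 4.38 CPM for *GFAP*. *INSYN2B* changed by -0.99, -0.88 and -1.33 and was lowest with siPDL1-1 in both states. In siNC cells, *INSYN2B* went from 9.01 and 10.6 CPM to 4.66 and 4.19 CPM, with siPDL1-1 from 5.11 and 5.30 to 2.30 and 2.45 CPM, and with siPDL1-2 from 9.47 and 9.13 to 3.46 and 2.74 CPM. *TPM1*, an actin-binding tropomyosin, changed by -0.45, -0.45 and -0.53, one of the smallest falls of the set. The synaptic scaffold *SHANK1* changed by -0.85, -0.80 and -0.69, *DCLK2*, a kinase of microtubules, by -0.71, -0.76 and -0.72, and *MICAL2*, which oxidizes actin, by -0.81, -0.63 and -0.62.

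Intracellular signalling and ubiquitin genes were 16, led by *TRIM45*, an E3 ubiquitin ligase (-1.22, -0.85 and -1.03), and the phospholipase *PLCE1* (-0.78, -0.86 and -0.98). *TRIM29* was at the low end of this group, at 2.99 and 3.09 CPM in unstimulated siNC cells, and passed the floor through its higher level with the *PD-L1* siRNAs. It changed by -0.38, -0.56 and -0.65.

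The 9 noncoding and unnamed transcripts included *DANCR*, a host gene of small nucleolar RNAs, and *MIAT*. The libraries held *DANCR* at 121 and 126 CPM (siNC), 131 and 131 CPM (siPDL1-1) and 123 and 128 CPM (siPDL1-2) without stimulation, and at 66.2 and 62.6, 49.3 and 47.6 and 67.3 and 71.00 CPM after IFNγ. *DANCR* fell deeper with siPDL1-1 (-0.93, -1.42 and -0.85), to 49.3 and 47.6 CPM from nearly the same unstimulated level as in the other groups. In siNC cells, *AC019117.2* went from 33.9 and 30.2 CPM to 11.7 and 13.2 CPM, with siPDL1-1 from 24.5 and 22.3 to 13.7 and 15.1 CPM, and with siPDL1-2 from 52.9 and 53.2 to 20.1 and 19.2 CPM. *AC019117.2* changed by -1.30, -0.66 and -1.39 and overlaps *AC019117.1*, also among the 113, on the opposite strand, so these are not 2 independent observations. The same holds for *THY1* and *THY1-AS1*, at 302.6 and 19.1 CPM on average. *MIAT* changed by -0.53, -0.60 and -0.61. *RTL3*, a retrotransposon-derived coding gene outside these groups, went from 8.62 and 8.20 to 3.82 and 3.82 CPM in siNC cells and changed by -0.96, -1.05 and -1.45.

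The 3 log2 fold changes lay within 0.2 of each other for 47 genes and more than 0.5 apart for 14, with a median range of 0.23. The deepest of the 3 falls was in siPDL1-2 cells for 51 genes, in siNC cells for 44 and in siPDL1-1 cells for 18. The widest ranges were those of *PMEPA1*, *AC019117.2*, *GFAP*, *NT5DC2* and *SEMA3C*, given above. Whether the fall itself depended on the siRNA was not tested, since the falls chose the genes.

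**Figure D3:**
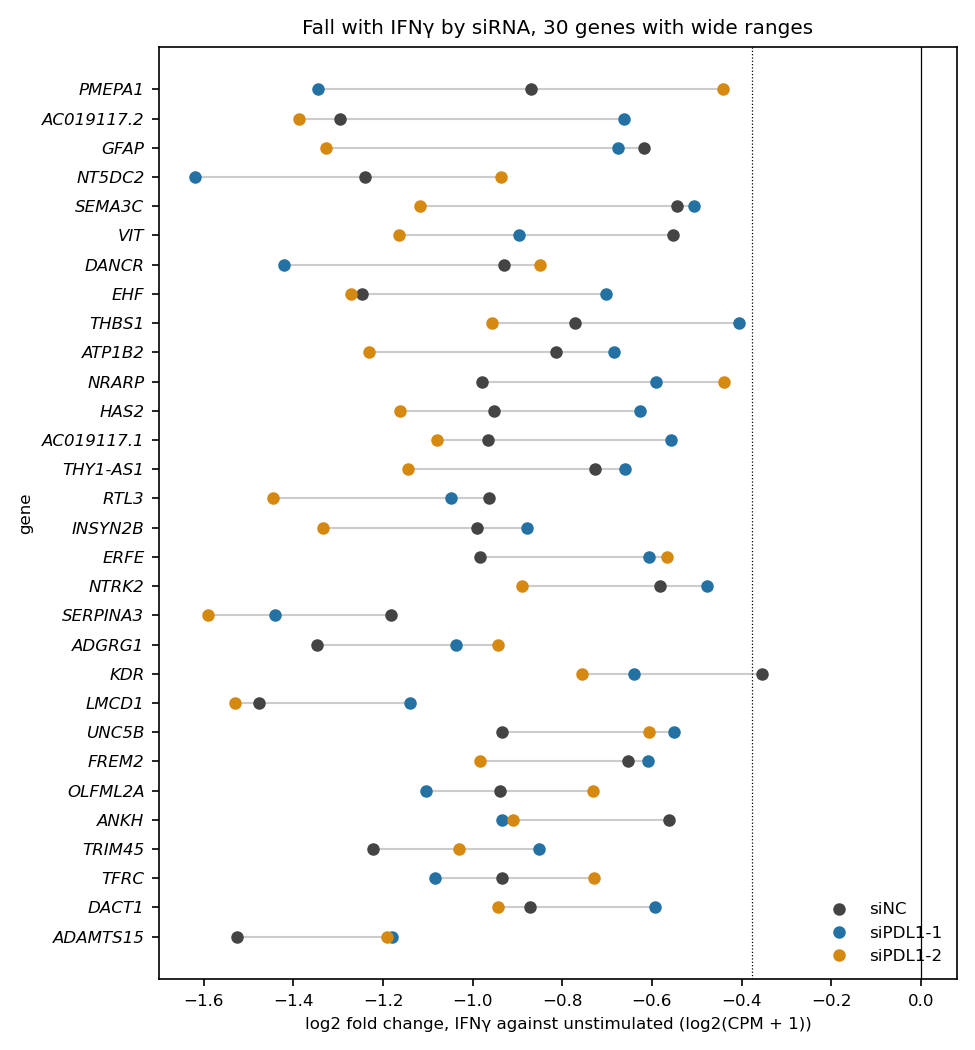
Log2 fold change with IFNγ (x axis, on log2(CPM + 1)) in siNC (gray), siPDL1-1 (blue) and siPDL1-2 (orange) cells for the 30 genes described in the text whose 3 values were farthest apart, with a dotted line at a ratio of 0.77. *PMEPA1* spans -1.35 to -0.44 and no siRNA holds the deepest fall throughout.

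The siRNAs were next compared with each other at a fixed state, a contrast that the choice of genes did not use directly, although the same libraries entered it and the floor rests on the unstimulated mean over all siRNAs. Genes were tested with limma over all 17982 genes, and called at FDR < 0.01 and a fold change over 1.5. All 113 genes passed the filter on low counts. In unstimulated cells, siPDL1-1 against siNC called 16 of the 113 higher and 5 lower, where 2.55% and 1.45% of all genes tested were called. With siPDL1-2 the numbers were 17 higher and 3 lower, beside 4.84% and 1.33% of all genes. After IFNγ, siPDL1-1 called 20 higher and 3 lower (all genes 3.73% and 1.75%), and siPDL1-2 called 13 higher and 2 lower (all genes 1.92% and 1.2%). As a share of the 113, the genes called higher were 14.2%, 15.04%, 17.7% and 11.5% in these 4 comparisons. Of the 11508 genes at the floor, 2.69%, 5.81%, 3.89% and 2.13% were called higher there. Lower were 4.42%, 2.65%, 2.65% and 1.77% of the 113, beside 1.82%, 1.67%, 2.16% and 1.47% of the genes at the floor. The median difference of the 113 genes was 0.14, 0.19, 0.18 and 0.15, beside medians between -0.0061 and 0.028 over all genes tested. In 5 of the 113 genes, *GFAP* and *TRIM29* among them, the unstimulated siNC mean was below the floor, so that they passed it through the *PD-L1* siRNAs. Among the other 108, in an alternative added after the data were seen, 12, 15, 19 and 11 were called higher and 5, 3, 3 and 2 lower. The lower counts with siPDL1-1 still hold *LONRF2*, whose unstimulated mean was below the floor with that siRNA. These 4 comparisons share the siNC libraries, and they are therefore not independent of each other.

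*MCAM* was 63.5 ± 0.301 against 27.3 ± 0.0133 CPM, a log2 difference of 1.19 ± 0.0604 (SE, FDR = 5.62e-09 from limma) with siPDL1-1 against siNC without stimulation, and 42.1 ± 0.674 against 14.7 ± 0.665 CPM, a log2 difference of 1.45 ± 0.0604 (SE, FDR = 1.39e-10 from limma) after IFNγ (mean ± SD, n = 2 libraries here and below). With siPDL1-2 the *MCAM* differences were 0.71 ± 0.0604 (SE, FDR = 5.70e-07 from limma) and 0.76 ± 0.0604 (SE, FDR = 6.39e-07 from limma). *MATN2* differed from siNC by 1.05 ± 0.073 (SE, FDR = 8.98e-08 from limma) and 0.94 ± 0.073 (SE, FDR = 1.36e-07 from limma) with siPDL1-1, and by 0.66 and 0.59 with siPDL1-2, all called. *PCDHGC3* was 229.97 ± 10.8 against 112 ± 4.10 CPM, a log2 difference of 1.03 ± 0.042 (SE, FDR = 1.25e-10 from limma) after IFNγ with siPDL1-1. In each of these comparisons the libraries of the siRNA lay above those of siNC. *MCAM*, *MATN2*, *PCDHGC3* and *SLC38A3* were called in all 4 comparisons with siNC, each higher. Reads of *MCAM* and *MATN2* were not separated by strand from those of the overlapping *CBL* and *RPL30*, whose siRNA differences are not given. *SLC38A3* differed by 1.03 ± 0.075 (SE, FDR = 6.94e-08 from limma) with siPDL1-1 and 0.95 ± 0.075 (SE, FDR = 2.70e-07 from limma) with siPDL1-2 in stimulated and unstimulated cells, respectively.

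*ATP1B2* was 32.2 ± 2.74 against 13.8 ± 1.03 CPM, a log2 difference of 1.17 ± 0.083 (SE, FDR = 1.26e-07 from limma) with siPDL1-1 in unstimulated cells and 19.6 ± 0.0318 against 7.40 ± 0.633 CPM, a log2 difference of 1.30 ± 0.083 (SE, FDR = 1.96e-08 from limma) after IFNγ. With siPDL1-2 it was called in unstimulated cells (0.89 ± 0.083 (SE, FDR = 1.42e-06 from limma)), and after IFNγ the difference was 0.47 ± 0.083 (SE, FDR = 6.84e-04 from limma). *SERPINA3* and *SERPINA5* were called higher with siPDL1-1 in both states, by 0.89 and 1.02 without stimulation and by 0.63 and 0.74 after IFNγ. In each state, both siPDL1-1 libraries of these neighbours lay above both siNC libraries. *THBS1* was 178 ± 3.82 against 99.6 ± 0.724 CPM, a log2 difference of 0.83 ± 0.038 (SE, FDR = 5.21e-10 from limma) after IFNγ with siPDL1-1. *HAS2* was called higher with siPDL1-2 in both states (0.87 and 0.66), and with siPDL1-1 after IFNγ (0.77). *TRIM29* stood at 9.16 ± 0.421 against 3.04 ± 0.0711 CPM with siPDL1-2 without stimulation, and its log2 differences of 1.33 without and 1.06 with IFNγ are given as a description, since it passed the floor through this higher level.

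Fewer genes were called lower, and none with both siRNAs in the same state. *TFRC* was 208 ± 2.25 against 393 ± 10.8 CPM, a log2 difference of -0.91 ± 0.0401 (SE, FDR = 1.15e-09 from limma) with siPDL1-2 in unstimulated cells and 125 ± 5.01 against 205 ± 3.62 CPM, a log2 difference of -0.71 ± 0.0401 (SE, FDR = 2.31e-08 from limma) after IFNγ. With siPDL1-1 *TFRC* differed from siNC by -0.35 ± 0.0401 (SE, FDR = 1.32e-05 from limma) and -0.50 ± 0.0401 (SE, FDR = 2.19e-07 from limma), below the fold change threshold. *TENM2* was 412 ± 5.81 against 674 ± 9.80 CPM, a log2 difference of -0.71 ± 0.056 (SE, FDR = 4.98e-07 from limma) with siPDL1-1 without stimulation, and it differed by -0.68 ± 0.056 (SE, FDR = 4.68e-07 from limma) after IFNγ. *INSYN2B* (-0.80 and -0.69) was called lower with siPDL1-1 in both states, and *EHF* without stimulation (-0.91 ± 0.1004 (SE, FDR = 9.06e-06 from limma)). The siPDL1-1 differences of *LONRF2* (-0.64 without and -0.78 with IFNγ) passed the thresholds too, but are given as a description. Its unstimulated mean was 3.40 CPM with siPDL1-1, so it passed the floor through siNC (5.85 CPM) and siPDL1-2 (6.23 CPM). These siPDL1-1 libraries lay below those of siNC without overlap. *RTL3* was called lower with siPDL1-2 after IFNγ (-0.88 ± 0.104 (SE, FDR = 2.44e-05 from limma)). *ADAMTS15* (-0.63) and *SYTL5* (-0.62) were called lower with siPDL1-2 in unstimulated cells, but *ADAMTS15* at -0.58 without replicate 2 of unstimulated siPDL1-2, and *SYTL5* at -0.59 without replicate 1 of unstimulated siNC or -0.54 without replicate 1 of unstimulated siPDL1-2, were no longer called.

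**Figure D4:**
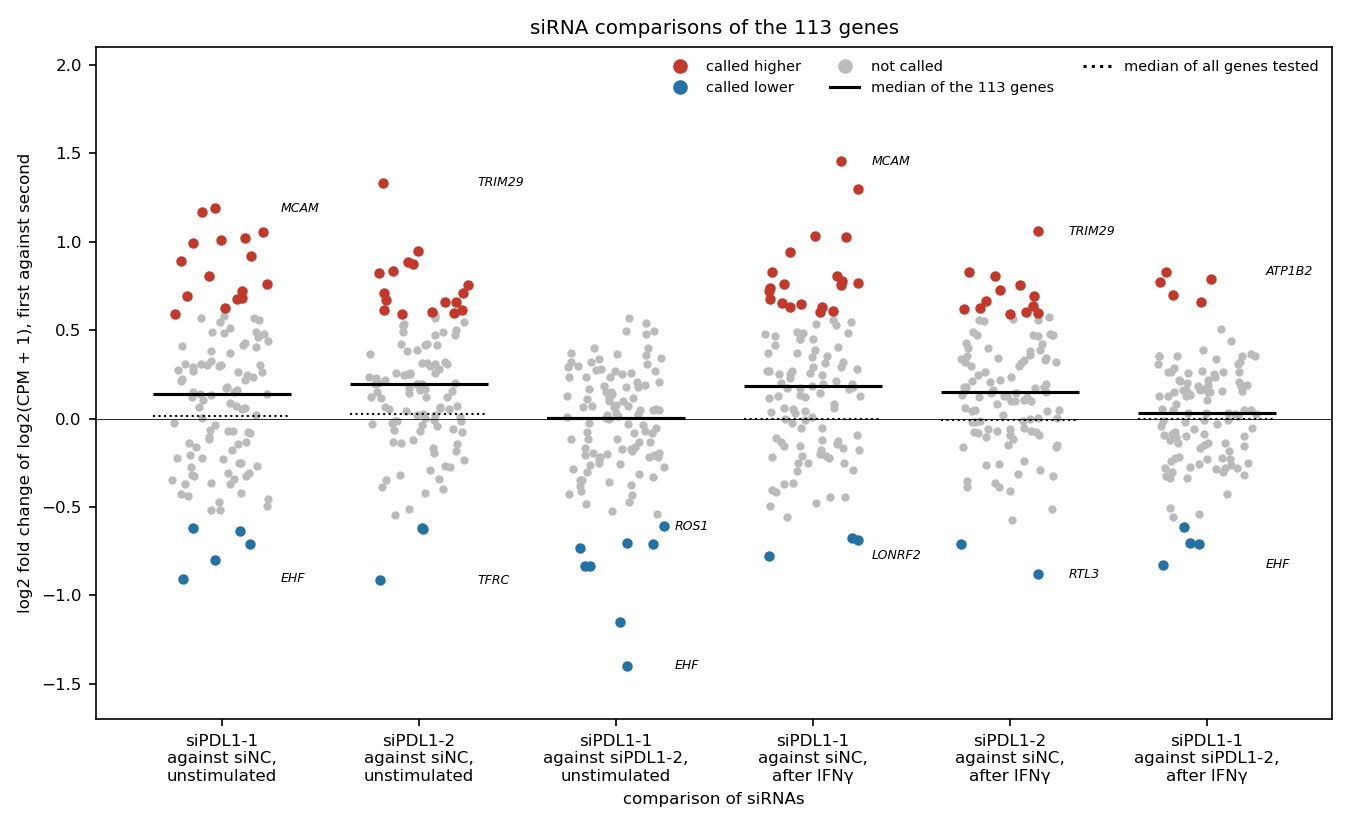
Log2 differences between siRNAs (y axis, on log2(CPM + 1)) of the 113 genes in 6 comparisons, 3 in unstimulated and 3 in stimulated cells, with genes called higher in red, called lower in blue and not called in gray. The solid line is the median of the 113 genes and the dotted line that of all genes tested, and against siNC the solid lines lie between 0.14 and 0.19.

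The siRNAs against *PD-L1* also differed from each other. In unstimulated cells, 0 of the 113 genes were called higher with limma and 8 (7.08%) lower in siPDL1-1 than in siPDL1-2 cells. Over all genes the shares were 0.884% and 3.47%, and over the genes at the floor 0.921% and 4.66%. At an unadjusted p under 0.05, 32 were higher, and edgeR and DESeq2 each called 1 higher. After IFNγ, 5 (4.42%) were called higher and 4 (3.54%) lower, beside 1.79% and 0.439% of all genes and 1.69% and 0.469% of the genes at the floor. *EHF* was 6.19 ± 0.669 against 17.9 ± 0.977 CPM, a log2 difference of -1.40 ± 0.1004 (SE, FDR = 2.46e-07 from limma) without stimulation and 3.41 ± 0.159 against 6.82 ± 0.358 CPM, a log2 difference of -0.83 ± 0.1004 (SE, FDR = 3.41e-05 from limma) after IFNγ. *AC019117.2* differed by -1.15 ± 0.0800 (SE, FDR = 1.91e-07 from limma), *SEMA3C* by -0.83 ± 0.062 (SE, FDR = 3.57e-07 from limma) and *TACR1* by -0.83 ± 0.065 (SE, FDR = 5.26e-07 from limma), all lower with siPDL1-1 in unstimulated cells. *TACR1* was also called lower after IFNγ (-0.71 ± 0.065 (SE, FDR = 1.85e-06 from limma)). The genes called higher with siPDL1-1 after IFNγ were *ATP1B2* (0.83), *THBS1* (0.79), *MCAM* (0.70), *AQP1* (0.66) and *GFAP* (0.77). The *GFAP* value is given as a description, since *GFAP* passed the floor through the *PD-L1* siRNAs. Its reads were also not separated by strand from those of *FAM187A* and *CCDC103*. *LONRF2* was lower past the thresholds in both states (-0.71 and -0.70), given as a description, since it passed the floor through siNC and siPDL1-2. The second difference was -0.58 without replicate 1 of stimulated siPDL1-1 and -0.60 without replicate 1 of stimulated siPDL1-2, no longer called in either case. In all, 44 of the 113 genes were called in at least 1 of the 6 comparisons and 69 in none, beside 14.5% of all genes tested called in at least 1. That share over the genes at the floor is not given.

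Pathway lists give the setting of these genes. They were read in the fit of the IFNγ effect over all genes, and the counts include any listed gene that is among the 113. Nothing is read from a call of such a member, since the same contrast chose it. Over all genes tested, 1.45%, 1.3% and 1.65% were called lower and 6.67%, 5.58% and 3.62% higher in siNC, siPDL1-1 and siPDL1-2 cells. Of 45 tested matrix genes other than collagens, 5, 4 and 4 were called lower and 2, 1 and 0 higher in siNC, siPDL1-1 and siPDL1-2 cells, and the 113 hold *THBS1*, *THBS2*, *HAS2* and *MATN2* of them. Of 46 tested TGF-β and BMP pathway genes, 4, 2 and 6 were called lower and 4, 4 and 2 higher, with *BMP6* and *PMEPA1* as members. Of 47 Wnt pathway genes, 2, 1 and 3 were called lower and 2, 2 and 1 higher, with *AXIN2* and *LEF1* as members. Of 28 Notch pathway genes, 3, 2 and 1 were called lower and 2, 2 and 1 higher, with *JAG1* and *NRARP*. Of 52 receptor tyrosine kinase and ERK feedback genes, 2, 2 and 4 were called lower and 6, 7 and 2 higher, with *FGFR1*, *FGFR2* and *EFNB2*. The medians of these 5 lists lay between -0.17 and 0.10 in the 3 groups. The 0 of 45 matrix genes called higher with siPDL1-2 compare with 4 at an unadjusted p under 0.05 with limma, and with 0 called by edgeR and 0 by DESeq2.

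Of 43 adhesion and axon guidance genes, 4, 3 and 6 were called lower and 4, 3 and 2 higher, with *MCAM*, *UNC5B*, *TENM2*, *NCAM1* and *SLIT3* as members. Of 41 ion channel and calcium genes, 2, 2 and 3 were called lower and 4, 5 and 2 higher, with *GRIK2* among the members. Of 42 genes of the actin cytoskeleton, 1, 0 and 0 were called lower with limma and 3, 3 and 2 higher. The gene called lower was *MRTFA*, and *TPM1*, the member of this list, stayed below the fold change threshold. At an unadjusted p under 0.05, 20, 18 and 14 were lower, and edgeR called 3, 0 and 0 and DESeq2 1, 0 and 0. Of 22 mesenchymal transition genes, 1, 1 and 1 were called lower and 6, 4 and 2 higher. The 1 called lower was in each case *SNAI2*, a member chosen by this contrast. Of 41 Hippo pathway genes and YAP-TEAD targets, none of which is among the 113, 0, 1 and 1 were called lower and 5, 4 and 2 higher. In siNC, 15 were lower at an unadjusted p under 0.05, and edgeR called 0 and DESeq2 1. The genes called lower there were *IGFBP3* with siPDL1-1 (log2 fold change -0.95) and *TGFB2* with siPDL1-2 (-0.80). Of the cell-cycle lists, with 43 genes of S phase and 50 of G2/M other than kinesins, 0 genes were called lower with limma in any group, and 1 G2/M gene was called higher. At an unadjusted p under 0.05, 20, 18 and 12 S-phase and 21, 29 and 32 G2/M genes were lower. For S phase, edgeR and DESeq2 called 1 gene lower with siPDL1-1, and for G2/M both called 0. Of 14 tested glioma and astrocyte markers, the 1 called lower in each group was *GFAP*, a member chosen by this contrast. Called higher were 1, 1 and 0, in both cases *SOX2*. With siPDL1-2, *SOX2* differed by 0.25 (FDR = 0.0416 from limma). There, 2 markers were higher at an unadjusted p under 0.05 with limma, and edgeR and DESeq2 called 0.

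Some of the genes lie close together. Within 1000000 bases on chromosome 11, *MCAM*, *USP2*, *THY1-AS1*, *THY1* and *TRIM29* lie between 119308529 and 120185529. Against siNC, *MCAM* was called higher with both *PD-L1* siRNAs in both states, and *THY1* with both after IFNγ only. In unstimulated cells *THY1-AS1* was called higher with siPDL1-2, while *USP2* was called with neither. *TRIM29* was higher past the thresholds with both there, given as a description, since it passed the floor through these higher levels. *TENM2*, *INSYN2B* and *SLIT3* lie on chromosome 5, *PPARD* and *SCUBE3* on chromosome 6 (89478 bases apart), *AFF3* and *LONRF2* on chromosome 2 (79446 bases), and *AQP1* and *PDE1C* on chromosome 7 (825661 bases). For 16 of the 113 genes, another gene overlapped with a mean level over 1/5 of the gene's own, and for these the reads of the shared stretch were not separated by strand. Whether such neighbours are more frequent than among other genes was not tested.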

How the data were processed

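RNA-seq values of 12 U251 libraries, 2 for each of 6 conditions taken from the labels, were used. Per the methods, CLC Genomics Workbench was used by the authors for trimming, for mapping to the Ensembl release of GRCh38 and for counting without regard to strand. The signal values are the normalized CPM deposited by the authors. Their scaling equalled edgeR's TMM factors, and at least 99.99% of the values of a library were whole multiples of 1 read (tolerance 0.02), so reads were recovered for filtering and for tests that need counts.

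The members and lists were chosen with earlier results of these data known. Genes were kept with filterByExpr (minimum count 10, minimum total 15), and limma (trend, robust) was run on log2(CPM + 1) with all 12 libraries as 6 groups. The pseudocount of 1 understates the change of low genes. Genes were called at FDR < 0.01 (Benjamini-Hochberg over 17982 genes) and fold change > 1.5. The fit was tested on simulated data. The p-values measure the spread between 2 libraries per group. The labels do not say whether libraries with the same number share an experiment. Between replicates the mean chi-square of the recovered reads was 1.83 to 7.22, so no library was a copy of another.

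Named genes are the 15 deepest mean falls, up to 3 members per list, the 3 largest called increases and decreases without overlap per siRNA comparison, the 3 genes on either side of the ratio, the 5 widest ranges, *CD274*, *IRF1* and *IDO1*, genes called lower in lists without a member, and genes overlapping a named member. *IRF1* ran from 12.5 to 549.5 CPM and *IDO1* from 0 to 516.4 CPM over the libraries. Some genes that the rule names are not reported here. The other members in the text were named by role, after their values were seen. Roles were assigned by hand. Promoters and their coordinates are from RefSeq (GRCh38.p14), and gene coordinates are of GRCh38. Alternatives were DESeq2's size factors, plain CPM, a pseudocount of 0.1, no filter, edgeR's quasi-likelihood and DESeq2's Wald tests, other thresholds, fits of 4 libraries, a replicate block, leaving out each library, and other settings of the rule. Tests ran in R 4.3.3 (edgeR 4.0.16, limma 3.58.1, DESeq2 1.42.0) and tables and plots in Python 3.11.15 (pandas 2.3.3, numpy 2.4.6, matplotlib 3.10.9). The extraction kit and instrument named in the methods differ from those in the labels.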

Additional observations from a re-analysis of the deposited data

Results flagged for a closer look

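Among the named genes, several lay on opposite sides of siNC, with every library of one group above and every library of the other below the siNC libraries. Values are log2 differences from siNC. The share of all genes that lay so is not given, so nothing is read from how many did.

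With siPDL1-1 on one side and siPDL1-2 on the other in unstimulated cells were *EHF* (-0.91 and 0.49), *AC019117.2* (-0.44 and 0.71), *TACR1* (-0.34 and 0.49), *SEMA3C* (-0.52 and 0.32), *LMCD1* (-0.16 and 0.20), *UNC5B* (-0.0713 and 0.31), *PMEPA1* (0.30 and -0.0712) and *LEF1* (0.0614 and -0.20). Some of the smaller differences from siNC could not be told from 0. The FDR from limma was 0.650 for *UNC5B* and 0.597 for *LEF1* with siPDL1-1, and 0.299 for *PMEPA1* with siPDL1-2. After IFNγ the siRNAs were on opposite sides for *EHF* (-0.36 and 0.47), *TACR1* (-0.37 and 0.34), *GFAP* (0.53 and -0.24), *PMEPA1* (-0.18 and 0.36) and *DANCR* (-0.40 and 0.10). FDR values of these stimulated differences from siNC are not given, and the smaller ones are not taken as settled. In the direct comparison of both siRNAs with limma, *EHF* and *TACR1* were called in both states and *AC019117.2* and *SEMA3C* without stimulation. *GFAP* passed the thresholds after IFNγ, given as a description, since it passed the floor through the *PD-L1* siRNAs. The direct difference was -0.36 ± 0.062 (SE, FDR = 4.23e-04 from limma) for *LMCD1*, -0.38 ± 0.099 (SE, FDR = 0.00779 from limma) for *UNC5B*, 0.37 ± 0.052 (SE, FDR = 8.21e-05 from limma) for *PMEPA1* and 0.26 ± 0.075 (SE, FDR = 0.0146 from limma) for *LEF1* without stimulation, and -0.54 ± 0.052 (SE, FDR = 3.24e-06 from limma) for *PMEPA1* and -0.50 ± 0.049 (SE, FDR = 3.32e-06 from limma) for *DANCR* after IFNγ, none of them past the fold change threshold.

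Some genes changed sides between the states. With siPDL1-1, the differences without and with IFNγ were 0.30 and -0.18 for *PMEPA1*, 0.0892 and -0.40 for *DANCR*, -0.44 and 0.19 for *AC019117.2*, -0.16 and 0.18 for *LMCD1*, -0.13 and 0.25 for *NRARP* and -0.0713 and 0.31 for *UNC5B*. With siPDL1-2 they were -0.0712 and 0.36 for *PMEPA1*, 0.47 and -0.24 for *GFAP*, 0.32 and -0.25 for *SEMA3C* and -0.32 and 0.22 for *NRARP*. The *GFAP* values are again a description, for the same reason of the floor. Several of these genes have an unstimulated side that is undecided. There, the FDR from limma with siPDL1-1 was 0.194 for *DANCR*, 0.0643 for *LMCD1*, 0.195 for *NRARP* and 0.650 for *UNC5B*. With siPDL1-2 it was 0.299 for *PMEPA1*. FDR values of the stimulated sides are not given, and those sides are not taken as settled. The change between the states was not tested, since the IFNγ contrast had chosen the genes.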

How the results depend on the processing

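With FDR < 0.05 and no fold change threshold, the number of the 113 genes called rose from 21 to 75 (siPDL1-1 against siNC), 20 to 71 (siPDL1-2 against siNC) and 8 to 62 (siPDL1-1 against siPDL1-2) in unstimulated cells, and from 23 to 78, 15 to 62 and 9 to 44 after IFNγ. Under the other alternatives these 6 counts stayed within 1.5 times the values given, and no difference of a named gene changed sign. Listed genes called lower by IFNγ rose from 24, 18 and 28 (siNC, siPDL1-1, siPDL1-2) to 163, 166 and 163 at FDR < 0.05, and in siNC to 37 with edgeR and 37 with DESeq2's Wald test. The rule found 42 genes with a ratio of 0.67, 426 with 0.9, 180 with a floor of 1 CPM, 68 with a floor of 20 CPM, 156 (113 of them shared) with plain CPM, and 112 (106 shared) with DESeq2's size factors. The median log2 fold change of the 113 genes became -0.82, -0.68 and -0.78 with plain CPM, -0.78, -0.66 and -0.76 with a pseudocount of 0.1, -0.82, -0.64 and -0.75 with edgeR, and -0.77 in siNC with DESeq2's size factors. Each of the 113 genes was lower in every group under both other scalings. Plain CPM moved the median of all genes to between -0.071 and -0.061.

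Leaving out 1 library gave 115 to 126 genes by the rule and medians of -0.730 to -0.726, -0.63 to -0.60 and -0.74 to -0.71. It gave 18 to 22, 17 to 20 and 7 to 8 genes called in the unstimulated comparisons and 22 to 26, 13 to 17 and 8 to 10 after IFNγ, and 22 to 36, 14 to 21 and 24 to 29 listed genes. The deviations of same-numbered libraries had no common sign (r of -0.30 to 0.36 over 15 pairs of groups). With a replicate block, 21, 20, 8, 23, 15 and 9 of the 113 genes were called, as without it, and 24, 17 and 28 listed genes. With 2 libraries per group, differences under the fold change threshold remain undecided, and a gene near 5 CPM rests on fewer reads than an abundant one. The cause of these shifts was not tested.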

Other observations

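Beyond the groups above, 3 of the 113 genes act in iron handling, which was noticed after their values were seen. *TFRC* takes up transferrin-bound iron, *BMP6* drives hepcidin in the liver, and *ERFE*, known from red cell precursors, binds BMP ligands. Their mean log2 fold changes with IFNγ were -0.92, -1.07 and -0.72. Of these, *TFRC* was also called lower with siPDL1-2 against siNC, while the differences of *BMP6* were 0.055 ± 0.067 (SE, FDR = 0.554 from limma) without and 0.32 ± 0.067 (SE, FDR = 0.00213 from limma) with IFNγ, and were not called.

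Among the 113 genes is also *TRIM45*, of a family with interferon-induced members. *TRIM45* was 53.5 and 54.4 CPM in unstimulated and 22.8 and 22.2 CPM in stimulated siNC cells.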
